A study of Monodelphis domestica with 5 samples.

Results

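Native ChIP-seq of adult ear fibroblasts of the gray short-tailed opossum gave 1768 H3K27me3 peaks on chromosomes 1 to 8 that coincided with an H3K9me3 peak and were free of H3K4me3. The cells were primary cultures at passages 4 to 6 from a single male (A0514) born to an LL1 mother and an LL2 father, with 1 library for each of the 4 antibodies and an input library, so the data describe the cultured cells of one animal and no value has a replicate error. The labels name pooling of chromatin for sisters only. The peaks, whose positions are given on the MonDom5 assembly, were chosen from the deposited MACS lists by their score, which is 10 times the negative log10 of the p-value given by MACS. A score of at least 50 (p of 1e-05) was required of both marks of repression (MORs), the peaks had to share at least 1 base, and no base of the H3K27me3 peak could lie in any H3K4me3 peak. The deposited lists of both MORs reached down to a score of 30, whereas those of H3K4me3 and H3K9Ac began at 50. Positions and widths were taken as deposited. Peaks were not called again at the threshold, and its effect on widths and overlaps of newly called peaks was not tested. For both MORs the peaks past the threshold differ in number from the peak sets that the study reports. Of 16592 deposited H3K27me3 peaks, 13322 were on chromosomes 1 to 8, 4484 of these passed the score, and 4101 of those were free of H3K4me3. The 1768 shared peaks made up 43.1% of the 4101 (exact 95% interval 41.6% to 44.6%, which covers counting error only and treats peaks as independent). They covered 4.33 Mb, of which 3.18 Mb (73.3%) also lay in H3K9me3 peaks.

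H3K27me3 is laid down by Polycomb repressive complex 2 and typically marks silenced developmental genes, a form of repression that can be reversed. H3K9me3 is written by enzymes such as SETDB1 and the SUV39H proteins, is bound by HP1 and is best known from constitutive heterochromatin and silenced repeats. H3K4me3 and H3K9Ac, the marks of activation (MOAs), lie at active or poised promoters. In mammalian cells the MORs mostly occupy separate territories, so places that carry both are of interest in their own right. A mixture of cells or alleles that carry one mark each gives the same pair of peaks as nucleosomes that carry both, and these cannot be told apart here.

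Membership followed from the scores and overlaps, and the values used for it are given as a description. The shared peaks had H3K27me3 scores from 50 to 475 with a median of 66.7. The 2 lowest were on chr5:174261453-174263527 (score 50) and chr2:164659212-164660733 (score 50.01), and the 2 peaks nearest below the threshold that otherwise met the rule, at chr1:747348275-747350334 and chr5:175726080-175727437, both scored 49.98. The list therefore runs through the threshold without a gap. With every deposited peak of both marks 5630 peaks were shared, and at a score of at least 100 in both marks 210 were. Of the 383 H3K27me3 peaks that did touch H3K4me3, 124 (32.4%, interval 27.7% to 37.3%) also overlapped H3K9me3, a smaller share than the 43.1% among peaks free of H3K4me3. Of the 2333 H3K4me3-free peaks that were not shared, 262 (11.2%) overlapped an H3K9me3 peak that scored below the threshold.

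The H3K9me3 peak was usually the wider of the pair, and the H3K27me3 peak was mostly covered by it without being enclosed. Each shared peak was paired with the H3K9me3 peak with which it had most bases in common, its partner. The median width was 2189 bases for the H3K27me3 peaks (range 930 to 15881) and 2662 bases for the partners (range 863 to 81084). The study describes H3K27me3 as diffuse in this genome and left it out of its later steps. The widths are therefore those of called peaks, and the extent of H3K27me3 domains was not measured. The H3K27me3 peak was the narrower one in 1140 of 1768 pairs (64.5%, interval 62.2% to 66.7%), with a median ratio of H3K27me3 to partner width of 0.82. Among the 210 pairs that scored at least 100 in both marks the ratio was 1.01, so the partner was not the wider one among the strongest peaks. Partners at least 2 times as wide as the H3K27me3 peak were found for 330 shared peaks and partners at most 0.5 times as wide for 57. Outside the pairs H3K9me3 peaks were not the wider ones. Those without H3K27me3 or H3K4me3 had a median width of 1905 bases, and H3K27me3 peaks without H3K9me3 or H3K4me3 had 2022. Partners were picked by overlap, which wide peaks meet more easily, and this part of the difference was not tested.

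**Figure D1:**
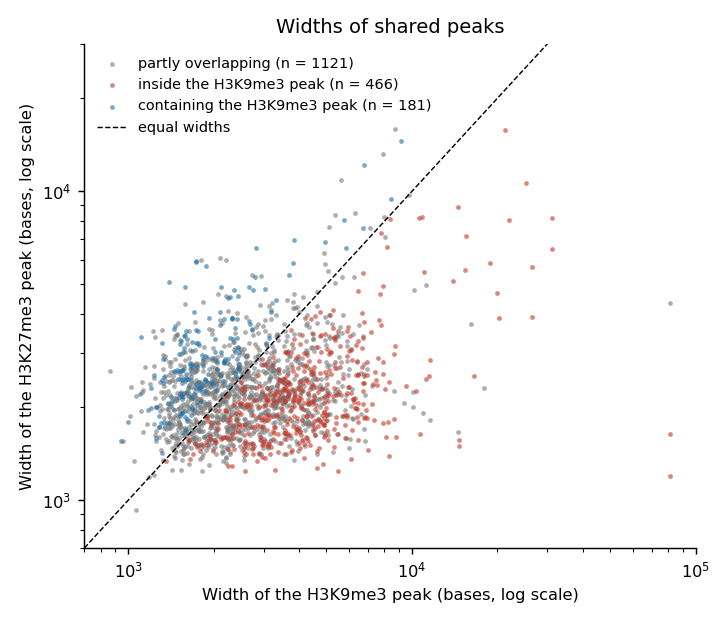
Width in bases of each shared H3K27me3 peak (vertical, log scale) against the width of its H3K9me3 partner (horizontal, log scale), coloured by arrangement, with a dashed line at equal widths. Most called H3K27me3 widths lie near the median of 2189 bases (10th to 90th percentile 1569 to 3431). The partners extend to 81084 bases, and the 466 enclosed peaks lie below the line.

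Partial overlap was the commonest arrangement. A total of 466 shared peaks (26.4%, interval 24.3% to 28.5%) lay wholly inside an H3K9me3 peak, 181 (10.2%, interval 8.86% to 11.7%) wholly contained their partner, and 1121 (63.4%) overlapped it in part. The overlaps were nevertheless long. The median H3K27me3 peak had 80.9% of its bases in H3K9me3 peaks, 1408 peaks (79.6%) had at least 50% and 707 (39.99%) at least 90%. At the other end, 60 shared peaks (3.39%) had 10% or less, so a contact of a few bases made up a small part of the list. The centres of the paired peaks were a median of 729 bases apart.

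The 3 arrangements went with different widths and strengths of H3K9me3. Partners that enclosed a shared peak had a median width of 4080 bases and a median score of 265. Partners that were contained had a median width of 1738 bases and a score of 87.5, and partly overlapping partners lay between them at 2411 bases and 136. The H3K27me3 peaks were ordered the other way, with median widths of 2064, 2680 and 2177 bases and median scores of 64.2, 78.7 and 65.9 for enclosed, containing and partly overlapping peaks. A wide peak encloses a narrow one more easily, so arrangement and width are not separate observations.

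The pairing was close to one to one. Of the 1768 shared peaks, 1639 overlapped a single H3K9me3 peak, 125 overlapped 2 and 4 overlapped 3. In all, 1843 H3K9me3 peaks were involved, which is 2.25% of the 81865 H3K9me3 peaks on chromosomes 1 to 8 that passed the score, and 57 of them carried more than one shared peak (56 carried 2 and 1 carried 3). The shared state thus took in 43.1% of H3K4me3-free H3K27me3 peaks but only a small part of the H3K9me3 list, which is far longer.

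The scores of the 2 MORs were only loosely related. Spearman's rho between the H3K27me3 score and the partner's score was 0.14 over 1768 pairs. This is a description without a test, since the pairs share the same libraries and input and the score of a peak also rises with its width (rho 0.66 for H3K27me3 and 0.78 for the partners). The 442 shared peaks with the weakest partners (scores 50.04 to 88.3) had a median H3K27me3 score of 62.6, and the 442 with the strongest partners (285 to 3100) had 71.9. The extent of overlap moved more with the partner. Between these sets the median covered part of the H3K27me3 peak went from 65.7% to 97.7%, and the number of enclosed peaks from 38 to 210, along with a rise in median partner width from 1639 to 4701 bases.

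**Figure D2:**
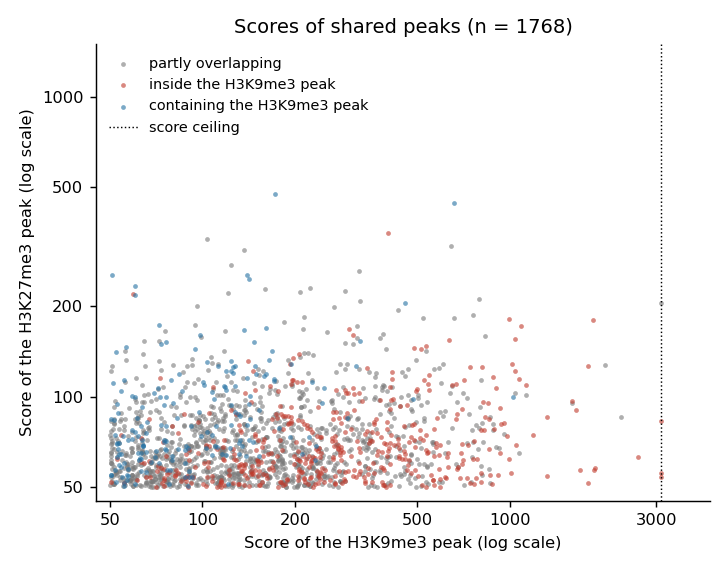
Score of each shared H3K27me3 peak (vertical, log scale) against the score of its H3K9me3 partner (horizontal, log scale), with the score ceiling of 3100 dotted. Ceiling here means the highest score in the H3K9me3 list, and the H3K4me3 and H3K9Ac lists reach 3233.06. The cloud has little slope (Spearman's rho 0.14, n = 1768), and 4 peaks have a partner at the ceiling.

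The shared peaks with the very highest scores in the 2 MORs were different ones. The highest H3K27me3 score, 475, belonged to a peak of 8093 bases near the start of chromosome 3 (chr3:148525-156617) that contained a partner with a score of 172. The next, at chr8:35593728-35600296, scored 442 and contained a partner with a score of 661, which covered 88.9% of it. At chr3:204015455-204022794 the H3K27me3 peak scored 350 and lay wholly inside a partner of 7755 bases with a score of 403. The 2 others were chr1:598814024-598820110 (score 337), of which H3K9me3 covered 1.74% with a partner score of 103.5, and chr1:232149916-232158189 (score 319), of which it covered 89.1% with a partner score of 646. Of the 5 partner scores, 4 were above the median of 152 and 1 was below it.

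Ordered by partner score, 3 of the first 5 shared peaks, from chr1:333173347 to 333202230, had the same partner. It was an H3K9me3 peak of 81084 bases (chr1:333174971-333256054) whose score was at the ceiling. The first of the 3 overlapped it only in part, and the rest lay wholly inside it. Their H3K27me3 scores were 205, 55.5 and 54.2. The remaining peaks of the 5 were both on chromosome 3. One was chr3:501664877-501668768 (score 82.8), inside a partner of 20206 bases at the ceiling. Another was chr3:509735839-509737406 (score 63.2), inside a partner of 14679 bases with a score of 2615. No peak was among the first 5 by both marks. The widest shared peak, 15881 bases at chr7:253588-269468, scored 87.8 and was 87.3% covered.

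Shared peaks did not carry acetylation peaks, and their distances to MOA peaks varied widely. None of the 1768 overlapped an H3K9Ac peak, which allows a share of up to 0.17% taken as 3 counts of 1768 (0.208% as the exact 95% bound), although the rule did not use H3K9Ac. H3K9Ac peaks often lie in H3K4me3 peaks, so the exclusion of H3K4me3 bears on this count, and 2 of the 2333 unshared H3K27me3 peaks and 48 of 74419 H3K9me3 peaks without H3K27me3 or H3K4me3 overlapped H3K9Ac. The H3K9me3 partners were not held to the rule on H3K4me3, and 74 of the 1843 (4.02%) touched an H3K4me3 peak elsewhere along their length and 20 (1.09%) an H3K9Ac peak.

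The median distance from a shared peak to the nearest H3K4me3 peak was 11.8 kb (95% interval of the median 10.99 to 12.5 kb), and to the nearest H3K9Ac peak 22.2 kb (20.3 to 24.0 kb). An H3K4me3 peak lay within 10 kb of 798 shared peaks (45.1%) and within 1 kb of 95 (5.37%), and 148 (8.37%) had none within 100 kb. For 280 shared peaks (15.8%) no H3K9Ac peak lay within 100 kb. The distances of shared peaks thus spanned from near contact to deep within regions without MOAs. Distances from positions drawn at random were not computed. The 3 nearest were at chr1:332694354-332697189, chr2:169759481-169762001 and chr8:87973198-87976775, with 9, 17 and 33 bases to an H3K4me3 peak. The 3 farthest were at chr5:198209056-198211864, chr1:677254497-677255916 and chr5:165636624-165638439, with 2135, 2114 and 1885 kb. The same peaks had 2340, 2377 and 2827 kb to H3K9Ac, so both MOAs were remote from them.

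At the median, shared peaks were nearer in this respect to other H3K27me3 peaks than to other H3K9me3 peaks, but more of them were remote from H3K4me3 than of other H3K27me3 peaks. H3K27me3 peaks without H3K9me3 or H3K4me3 had a median of 8.06 kb to H3K4me3 (7.46 to 8.50 kb) and 22.2 kb to H3K9Ac. The 74419 H3K9me3 peaks without H3K27me3 or H3K4me3 had 140.9 kb (136.5 to 145.7 kb) and 241 kb, and 53.7% of them had no H3K4me3 peak within 100 kb. Among the H3K27me3 peaks this held for 8.37% of the shared and 2.19% of the unshared ones, whose 90th percentiles of distance were 81.3 and 37.05 kb. All 3 sets were held free of H3K4me3, so the exclusion applies to each alike. The intervals of the medians do not overlap for H3K4me3, but with 1 library per mark no test of these differences was made. The gap to the H3K9me3 set shrank with a stricter score, to 8.68 kb for shared peaks against 32.1 kb at a score of at least 100, and grew to 13.3 against 198 kb with every deposited peak. H3K27me3 peaks without H3K9me3 had 4.76 and 9.42 kb at these settings.

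**Figure D3:**
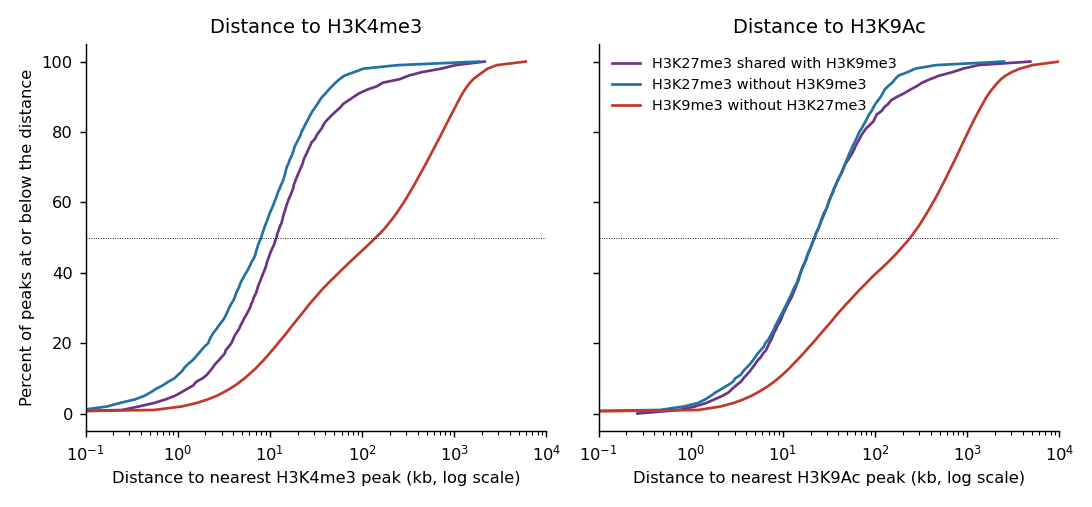
Percent of peaks (vertical) at or below a given distance in kb (horizontal, log scale) to the nearest H3K4me3 peak (left) and H3K9Ac peak (right), for H3K27me3 peaks shared with H3K9me3 (n = 1768), H3K27me3 peaks without it (n = 2333) and H3K9me3 peaks without H3K27me3 (n = 74419). The H3K4me3 curve of the shared peaks starts near that of the other H3K27me3 peaks and parts from it among the more distant peaks (90th percentiles 81.3 and 37.05 kb), and the H3K9me3 curve reaches its median at 140.9 kb from H3K4me3 and 241 kb from H3K9Ac.

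The distance also moved with the strength of H3K9me3, so H3K9me3 peaks were set side by side within classes of score, which were chosen after the data were seen. For this, the 1769 H3K9me3 peaks that carried a shared peak and were themselves free of H3K4me3 were used. In the weakest class (50 to 75) the median distance to H3K4me3 was 15.1 kb for the 360 peaks that carried shared H3K27me3 and 230.5 kb for the 37463 without H3K27me3. Between 75 and 100 it was 16.9 kb against 172 kb, and between 100 and 200 it was 12.6 kb against 50.2 kb. At 200 and above it was 9.37 kb (8.54 to 11.0 kb) against 12.4 kb (11.8 to 12.8 kb). Strong H3K9me3 peaks thus lay near H3K4me3 with or without H3K27me3, whereas among weak ones the nearness went with H3K27me3. The carrying peaks overlap shared peaks by definition, so their distances are not separate from those of the shared peaks. Across all scores the medians were 11.9 kb for carrying peaks and 11.8 kb for shared peaks. From the weakest class to the strongest, the median widths were 1584 against 1608, 1964 against 2081, 2479 against 2611 and 4076 against 3596 bases, so the carrying peaks were the wider ones in the strongest class, where the distances were closest.

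**Figure D4:**
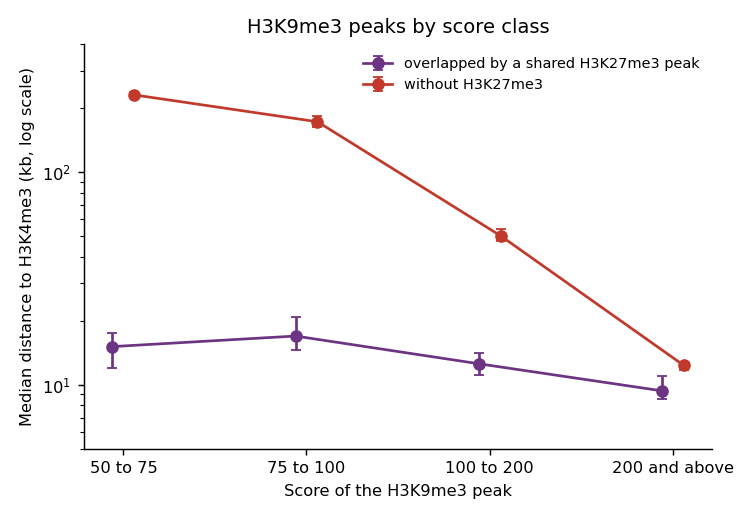
Median distance in kb to the nearest H3K4me3 peak (vertical, log scale) of H3K9me3 peaks in 4 classes of score, for those that carry a shared H3K27me3 peak and those without H3K27me3, with 95% intervals of the median. The sets are 15.1 and 230.5 kb apart from H3K4me3 in the weakest class and 9.37 and 12.4 kb in the strongest.

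The H3K4me3 peaks beside shared peaks were acetylated somewhat less often than H3K4me3 peaks in general. The nearest H3K4me3 peak overlapped H3K9Ac for 916 of the 1768 shared peaks (51.8%, interval 49.5% to 54.2%) and for 46.8% of H3K27me3 peaks without H3K9me3, against 58.9% of all 75115 H3K4me3 peaks on chromosomes 1 to 8. The side on which H3K9me3 extended was divided almost evenly. Among the 1121 partly overlapping pairs, the partner's centre was displaced to the side of the nearest H3K4me3 peak in 581 (51.8%, interval 48.9% to 54.8%).

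The surroundings of shared peaks were close to those of other H3K27me3 peaks. Within 100 kb of a shared peak there was a median of 5 H3K9me3 peaks that it did not overlap, and 6 H3K4me3, 4 H3K9Ac and 1 other H3K4me3-free H3K27me3 peak. Around H3K27me3 peaks without H3K9me3 the medians were 4 H3K9me3, 6 H3K4me3 and 3 H3K9Ac peaks. Around H3K9me3 peaks without H3K27me3 they were 8 other H3K9me3 peaks and none of H3K4me3 or H3K9Ac.

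On the chromosomes shared peaks were spread broadly. Chromosomes 1 and 2 had the most, with 430 (0.575 per Mb) and 312 (0.576 per Mb), and chromosome 7 the fewest, with 98 (0.376 per Mb). Chromosomes 3, 4, 5, 6 and 8 had 269, 220, 153, 132 and 154, or between 0.452 and 0.51 per Mb. Chromosome 7 was also lowest in H3K27me3 peaks without H3K9me3, at 0.564 per Mb. The shared part of H3K4me3-free H3K27me3 peaks ranged from 40% on chromosome 7 (interval 33.8% to 46.4%) to 46.8% on chromosome 3 (42.6% to 50.96%), and these intervals overlap. H3K4me3 peaks were least dense on chromosomes 5 and 7, at 17.7 and 18.3 per Mb, and H3K9me3 peaks most dense on the same chromosomes, at 28.8 and 26.4 per Mb. Of these, chromosome 7 was low in shared peaks and chromosome 5, at 0.502 per Mb, was near the 0.517 per Mb of all 8.

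The last 10 Mb at either end of the chromosomes held 131 shared peaks (7.41%, interval 6.23% to 8.73%), while making up 4.67% of the span. H3K27me3 peaks without H3K9me3 and H3K9me3 peaks without H3K27me3 had 4.07% and 4.05% there, so of the 3 sets only the shared peaks exceeded the share of the span.

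About 1 in 3 shared peaks had another nearby. A second shared peak lay within 100 kb of 619 (35.0%, interval 32.8% to 37.3%) and within 10 kb of 273 (15.4%), and the median distance to the nearest one was 281 kb. H3K27me3 peaks without H3K9me3 were closer together, with 45.6% within 100 kb of one another, but there were also more of them (2333). At a score of at least 100 the share of shared peaks with a neighbour was 20.0%, and with every deposited peak 53.4%, so this value moves with the number of peaks. When peaks within 100 kb were joined, 1149 shared peaks stood alone, 162 groups held 2, and 70 groups held 3 or more. The 16 groups of 5 or more held 118 peaks. Shared peaks with strong partners had neighbours more often, at 50.2% of the 442 with the strongest partners against 25.6% of the 442 with the weakest.

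**Figure D5:**
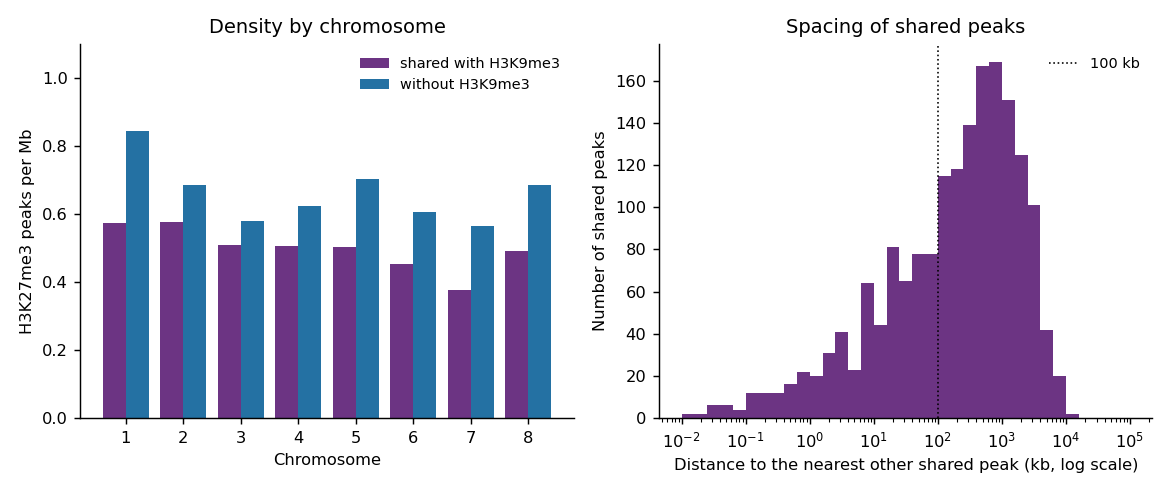
Left, H3K27me3 peaks per Mb on each chromosome, shared with H3K9me3 or without it, with chromosome 7 lowest in both (0.376 and 0.564 per Mb). Right, number of shared peaks by the distance in kb to the nearest other shared peak (log scale), with 619 of 1768 at or below the dotted line at 100 kb.

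The 2 groups with most shared peaks on chromosome 1 were neighbours. The larger, chr1:332966405-333202230, held 15 shared peaks in 236 kb, and a group of 10 lay 203 kb before it at chr1:332545737-332763639, so that 25 of the 1768 fell within 656 kb. The 15 peaks had H3K27me3 scores from 54.2 to 262 (median 80.2) and partner scores from 76.5 to the ceiling (median 410). The strongest in H3K27me3, chr1:333038095-333043387, scored 262 and was 81.1% covered by a partner with a score of 323. Among those with strong partners were chr1:333069310-333071840, wholly inside a partner of 16514 bases with a score of 1801, and chr1:333073817-333076119, which was 99.1% covered by H3K9me3 and had a partner of 17987 bases with a score of 2299.95. In all, 5 of the 15 were wholly enclosed.

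This group was interleaved with H3K4me3 that was not acetylated. The same 236 kb held 20 H3K4me3 peaks and no H3K9Ac peak, as well as 25 H3K9me3 peaks and 4 H3K27me3 peaks without H3K9me3. The shared peaks there were a median of 1.32 kb from H3K4me3, and the nearest was 131 bases away, against 11.8 kb over all shared peaks. In the adjoining group of 10, with H3K27me3 scores from 54.3 to 182, the median distance was 2.46 kb, and its 218 kb held 7 H3K4me3 peaks and 1 H3K9Ac peak.

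The position of this group can be tied to genes through regions that were amplified for the study. The 3' end of PCDHGC5, a gamma protocadherin, lay 135.8 kb beyond the last of the 15 peaks. Gamma protocadherins are cell adhesion proteins of which many variants arise from a long array of first exons, each with a promoter of its own. A nearer 3' end, of XM_001377829.1, which has no symbol here, lay 25.4 kb beyond the last peak, inside the H3K9me3 peak of 81084 bases. The 3' end of LOC100027670 lay 42.8 kb beyond the last peak, inside the same H3K9me3 peak. In the later assembly mMonDom1, LOC100027670 is found between PCDHB1, a beta protocadherin, and DIAPH1, a formin. By PCDHGC5 and this gene order the group lies near protocadherin genes. Which of its peaks lie in a gene or at an exon was not analysed here.

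The third group, chr4:17118047-17274891, had the opposite setting. Its 10 shared peaks, in 157 kb, had H3K27me3 scores from 63.0 to 167 and strong partners with a median score of 624, and no H3K4me3 or H3K9Ac peak lay within its bounds. The median distance to H3K4me3 there was 40.9 kb. The H3K27me3 peak with the highest score, chr4:17259809-17263362, scored 167 and contained a partner with a score of 137, while the strongest partner, of 6778 bases with a score of 1594, carried 2 of the 10. A group of 9 at chr4:50393752-50626136, named after its values were seen, held wide peaks, among them one of 15819 bases with a score of 180.5 wholly inside an H3K9me3 peak of 21342 bases with a score of 1868. Groups of shared peaks thus occurred both among unacetylated H3K4me3 and away from it.

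Of the study's candidate genes for imprinting, 176 had a 3' end placed on chromosomes 1 to 8. These were selected by the study from the same libraries for promoters with H3K9me3, both MOAs and a CpG island, so their nearness to H3K9me3 is not independent. A shared peak lay within 50 kb of the 3' end of 20 of them (11.4%, interval 7.08% to 17.0%). An H3K27me3 peak without H3K9me3 lay within 50 kb of 11 (6.25%, interval 3.16% to 10.9%). Some neighbouring genes of the 20 had the same nearest shared peak, whereas the intervals treat genes as independent. The share over all genes was not computed. The distance and the genes below were chosen after the values were seen, and at 100 kb the numbers were 35 and 27.

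No 3' end lay within a shared peak, and the nearest, of a gene without a symbol, was 7.30 kb away. Of the genes with symbols, COPB1 was nearest. Beside COPB1, a subunit of the COPI vesicle coat, a shared peak with a score of 50.7 lay 11.98 kb away, 99.4% covered by a partner with a score of 71.4. Next by distance was CCDC110, at 19.4 kb from a shared peak with a score of 74.15, wholly inside a partner with a score of 270. Beside RIOK2, a kinase of ribosome assembly, one with a score of 54.1 lay 25.6 kb away. Not all of the 20 genes are named here. The 2 strongest H3K27me3 peaks of the 20 genes were 36.9 kb from TNFRSF25, a death receptor of the TNF family (score 121, partner 348, with H3K4me3 0.278 kb away), and 47.6 kb from BCL2L1, an inhibitor of apoptosis (score 95.4, wholly inside a partner with a score of 850). The peak beside GCLC, which makes the rate-limiting subunit for glutathione synthesis, scored 69.2 and lay 38.7 kb away, wholly inside a partner with a score of 419. Those beside TIA1, an RNA-binding protein of stress granules, and PCF11, a factor for the cleavage of pre-mRNA 3' ends, were 37.9 and 37.7 kb away with scores of 86.6 and 51.9.

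CYP1B1 and TWIST1 were also among the 20. The shared peak nearest to CYP1B1, a cytochrome P450 induced through the aryl hydrocarbon receptor, lay 27.4 kb from its 3' end with a score of 60.6 and a partner score of 362. The one nearest to TWIST1, a transcription factor of mesenchyme, lay 46.7 kb away with a score of 62.9 and a partner score of 115.5. Both were partly overlapped, to 80.99% and 60.3%.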

How the data were processed

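Native ChIP-seq libraries of H3K4me3, H3K9Ac, H3K9me3 and H3K27me3 and an input were assigned from the sample labels. Per the study's methods, the authors removed low-quality reads, aligned the rest to the MonDom5 assembly in Galaxy (Bowtie, reporting one best position per read) and ran MACS for every mark with the input as control. The submitters' processing notes name CASAVA 1.7, Bowtie 1.1.2 and MACS 1.0.1. The deposited lists give each peak's position and score, 10 times the negative log10 of its p-value, which depends on depth and width, so that equal scores in the H3K27me3 and H3K9me3 libraries are not equal enrichment. The lists hold no read counts. The study gives aligned reads per library, most for H3K27me3 and fewest for H3K9me3, and these were not used here. Other data in the lists are positions in bases.

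Peaks were read with Python 3.11.15, numpy 2.4.6, pandas 2.3.3 and scipy 1.17.1. In 2 H3K9me3 peaks a start below 0 was set to 0. Starts are printed counted from 1, and distances are the bases between facing edges. The lengths of chromosomes were taken as the largest peak end. Overlap and distance code was tested on simulated peaks and checked against bedtools 2.31.1, which gave the same 1768 shared peaks and distances. Intervals are exact 95% binomial intervals for shares and order-statistic intervals for medians. With 1 library per mark no test was made.

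Members and regions were chosen with earlier results of these data known. Regions named were the 5 highest by each MOR, the widest, the 3 groups with most peaks, the 3 nearest to and farthest from H3K4me3, and those on either side of the threshold. The 3' ends came from the study's list of amplified regions, read from page images, where the printed end was 1000 above the start in 174 of 176 (IGF2R, amplified beside the candidates, was left out). Gene order was taken from RefSeq genes of mMonDom1. Gene annotation and sequence of MonDom5 were not used here. Score classes, and the distances of the comparison sets at other scores, were added after the data were seen. Alternatives were set for the score, the overlap, merging, H3K9Ac and the distance that counts as near.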

Additional observations from a re-analysis of the deposited data

How the results depend on the processing

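For 9 results, 49 alternative values were computed, of which 22 stayed within the main value's interval (for the number of peaks within 1.5 times, for rho within 0.1) and 27 moved. Only rho could have changed sign, and it stayed positive. The width ratio rose above 1 at a score of at least 100 and was below 1 at the other settings. With every deposited peak there were 5630 shared peaks, 29.7% enclosed, 84.7% median cover, a width ratio of 0.77, 53.4% with another within 100 kb, and 13.3 and 25.01 kb to H3K4me3 and H3K9Ac. At a score of at least 100 in both MORs these were 210, with 41.6% of H3K4me3-free peaks shared, 76.3% median cover, a ratio of 1.01, 20.0% with another near, and 8.68 and 19.7 kb. When 50% of the H3K27me3 peak had to be covered, 34.3% were shared, 33.1% of them enclosed, with 90.3% median cover, a ratio of 0.774 and 28.6% near another. Merging peaks within 1000 bases gave 33.7% enclosed, 84.1% cover, a ratio of 0.689 and 31.7% near another. With MOA peaks of a score of at least 100 the distances were 14.3 and 27.1 kb. Near taken as 50 kb or 200 kb gave 28.1% and 44.9%. Leaving out H3K9Ac overlaps changed no member. Fewer or more peaks follow from the thresholds by construction, and for the other values the cause was not tested. No paired analysis was possible because each antibody had a single library, which also means that no replicate could be left out.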

Other observations

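Outside chromosomes 1 to 8 the same rule gave other shares. On X, 5 H3K27me3 peaks passed the score, all were free of H3K4me3, and 4 of them shared a base with an H3K9me3 peak. On sequence not placed on a chromosome, 1005 of 2179 H3K27me3 peaks were free of H3K4me3, and 879 of these (87.5%, exact 95% interval 85.3% to 89.4%) were shared with H3K9me3, against 43.1% on chromosomes 1 to 8.

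Width was a further value on which the sets stood apart. Of the 1768 shared peaks, 55 (3.11%, interval 2.35% to 4.03%) were at least 5 kb wide, against 12 of the 2333 H3K27me3 peaks without H3K9me3 (0.514%, interval 0.266% to 0.897%) and 31 of the 383 that touched H3K4me3 (8.09%, interval 5.57% to 11.3%). Wide peaks overlap other peaks more easily, and this part of the difference was not tested.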
